A study of Mus musculus with 8 samples.

Results

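Of the 112479 merged regions of open chromatin found in any of 4 ATAC libraries of mouse blood stem and progenitor cells, 8563 were narrow, called in every library and far from genes. A region entered this set when the peak intervals of all 4 libraries met in it, its merged span was below 2000 bp and it lay over 10 kb from the body of any protein-coding gene of GRCm38. Mitochondrial intervals were left out. The set made up 18.7% of the 45779 regions called in all 4 libraries. Members were thus chosen by the peak calls themselves, so their presence, narrow span and distance are no findings. The median distance to a gene was 34686 bp and the farthest region lay 2137453 bp away. The median span was 507 bp, with a range of 264 to 1997 bp.

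LSK cells, the lineage-negative, Sca1-positive and Kit-positive cells of bone marrow, hold the haematopoietic stem cells and multipotent progenitors. They were sorted from C57BL/6 mice that were wild type (labelled WT) or carried a conditional knockout of Hira (labelled Hira KO), which encodes a histone chaperone that deposits histone H3.3. ATAC-seq, which maps open chromatin by where a transposase cuts, and RNA-seq each had 2 libraries per genotype. The labels give neither the Cre driver nor the age of the mice, and they do not say that libraries came from separate mice, so p-values measure only the spread between these libraries. Hira RNA went against the titles: its level in CPM, a count scaled by library size, was 16.5 and 17.2 with the WT label against 24.4 and 23.3 with the Hira KO label. The log2 difference was 0.50 ± 0.19 (SE; edgeR adjusted p = 0.180, n = 2 and 2), and the deposited file names carry the opposite genotype from the titles. Every direction below is therefore that of libraries as labelled. In RNA, 9 of 9 markers of the LSK gate stood above 1 TPM, a level scaled by transcript length and library size, in all 4 libraries. Their summed level separated the groups, at 352 and 307 TPM with the WT label against 646 and 615 TPM with the Hira KO label, and its part in the RNA calls below was not tested. Of 10 markers of lineage cells that the gate removes, 4 stood above 1 TPM in all 4 libraries, with summed levels of 74.3, 48.7, 49.6 and 34.0 TPM in the same order. Genes on Y (Ddx3y, Uty, Kdm5d and Eif2s3y) had peaks in both replicate 2 ATAC libraries and in neither replicate 1 library, so in ATAC replicates 1 and 2 differed in sex chromosomes in both groups. The RNA libraries did not follow this. There Ddx3y stood at 14.1 TPM in labelled WT replicate 2 and at most at 0.05 TPM in the other 3, and Xist at 4.98 TPM in labelled WT replicate 2 and from 559 to 885 TPM in the others. Sex chromosomes were thus uneven between the RNA groups, and their part in the RNA calls was not tested.

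Distal enhancers are short stretches of open chromatin, often far from a gene, where transcription factors bind and raise the output of a promoter that comes near in the folded chromosome. In blood stem cells such elements lie in groups around genes for transcription factors, cytokine receptors and growth control. Open chromatin away from coding genes can also be the promoter of a non-coding RNA, an insulator or a repeated sequence, and accessibility alone does not tell these apart.

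The sequences shown first are those of distal narrow regions that held the start of a long non-coding RNA (lncRNA), since these starts are the members with a sequence of known role in the files used. RefSeq start windows (GRCm38.p6) run from 250 bases before to 50 after a start, and 276 windows of 237 lncRNA genes lay whole inside 232 members. Capitals mark matches, on either strand, to the GC box GGGCGG (bound by SP factors), the CCAAT box CCAAT (bound by NF-Y) and the ETS motif CCGGAAG. Snhg5, which hosts small nucleolar RNAs, starts in a member at chr9:88522387-88524366, and its window is chr9:88522848-88523147 on the minus strand. Dancr, an lncRNA that starts at chr5:74092519-74093678, has the plus-strand window chr5:74092810-74093109. BC002059 starts at chr17:16950913-16951900 and its plus-strand window is chr17:16951286-16951585. AU020206 starts at chr7:75781289-75782815 and its minus-strand window is chr7:75782071-75782370.
Snhg5: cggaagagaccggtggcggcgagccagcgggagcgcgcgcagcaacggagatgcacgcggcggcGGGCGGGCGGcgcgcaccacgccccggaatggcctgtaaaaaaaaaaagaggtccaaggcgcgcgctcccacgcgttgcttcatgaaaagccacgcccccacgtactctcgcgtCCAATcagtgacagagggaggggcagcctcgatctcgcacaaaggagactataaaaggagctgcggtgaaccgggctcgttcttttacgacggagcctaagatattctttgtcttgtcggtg
Dancr: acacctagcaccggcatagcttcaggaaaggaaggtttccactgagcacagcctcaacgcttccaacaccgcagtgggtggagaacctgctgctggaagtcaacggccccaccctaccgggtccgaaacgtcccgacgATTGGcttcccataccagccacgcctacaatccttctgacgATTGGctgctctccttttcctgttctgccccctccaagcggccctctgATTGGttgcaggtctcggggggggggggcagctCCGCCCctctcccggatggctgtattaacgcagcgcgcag
BC002059: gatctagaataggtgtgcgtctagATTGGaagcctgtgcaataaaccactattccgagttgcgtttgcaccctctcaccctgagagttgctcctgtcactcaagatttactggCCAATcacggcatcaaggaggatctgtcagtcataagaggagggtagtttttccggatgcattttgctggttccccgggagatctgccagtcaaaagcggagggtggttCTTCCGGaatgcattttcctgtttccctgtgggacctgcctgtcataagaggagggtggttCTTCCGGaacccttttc
AU020206: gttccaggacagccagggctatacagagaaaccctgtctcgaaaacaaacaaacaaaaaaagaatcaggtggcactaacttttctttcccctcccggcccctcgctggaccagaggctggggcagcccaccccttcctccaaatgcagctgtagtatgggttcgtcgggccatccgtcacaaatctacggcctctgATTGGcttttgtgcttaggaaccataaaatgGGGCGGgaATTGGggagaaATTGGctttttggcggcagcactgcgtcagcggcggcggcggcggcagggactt
The Snhg5 window held 2 overlapping GC boxes and 1 CCAAT box at position -72 from the start. Dancr held 3 CCAAT boxes, all on the minus strand, the nearest at position -23, and 1 GC box. BC002059 held 2 ETS matches and 2 CCAAT boxes but no GC box. AU020206 held 1 GC box and 3 CCAAT boxes.

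Fold enrichment is the authors' value at the highest summit of a region, relative to the background of their peak caller. The 4 lists were not scaled to each other, so values of different libraries are set side by side as a description. Values in brackets or series below follow the order labelled WT replicates 1 and 2, then labelled Hira KO replicates 1 and 2. The Snhg5 start stood at 163, 117, 143 and 135-fold, so the 4 libraries lay close together and the groups overlapped. Dancr stood at 108, 79.1, 103 and 94.0-fold, BC002059 at 106, 89.0, 103 and 88.2-fold, and AU020206 at 75.2, 52.2, 62.0 and 60.7-fold. In RNA, Snhg5 reached 98.4, 88.3, 88.7 and 38.03 TPM and BC002059 34.4, 32.7, 41.2 and 22.6 TPM. Dancr, which was as open as BC002059, reached 1.07, 0.36, 0.73 and 0.39 TPM. Its start region also holds the snoRNA gene Snora26, and no source used here says whether the RNA libraries kept strand, so overlapping genes cannot be told apart.

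Of 4935 lncRNA genes with a RefSeq start over 10 kb from coding genes, 317 (6.42%) started in a distal narrow region and 4377 in no region of any library. The genes that started in a member had a median of 0.299 TPM (116 genes with a TPM value) and 32.8% of them exceeded 1 TPM. The genes that started in no region had a median of 0.0175 TPM (913 genes), and 4.82% exceeded 1 TPM. Starts in regions called in 1 to 3 libraries lay between, with 20.6% above 1 TPM, and the 15 measured genes that started in other regions called in all 4 libraries were highest, with a median of 2.75 TPM and 73.3% above 1 TPM. Of 49 tested genes with a start in a member, 1 was called higher in labelled Hira KO and 0 lower, against 1.32% and 0.48% of all 16258 tested genes. It was Gm15411, at 0.70 and 0.21 against 4.58 and 6.25 TPM (log2 difference 3.73 ± 0.56 SE, adjusted p = 0.0347 by edgeR). Its start region at chr5:148958911-148960279 stood at 14.6, 8.21, 22.6 and 13.7-fold, so there the groups overlapped.

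The letters around these starts were counted beside those of starts without a peak. The GC box was found in 28.3% of the 276 windows inside members, in 6.65% of 5337 windows of distal lncRNA starts in no region, and in 35.9% of all 32544 windows. The ETS motif was found in 10.1%, 2.16% and 8.91% of the same 3 sets, in that order, and the CCAAT box in 31.9%, 38.6% and 37.4%. TATAAA went the other way from the GC box, with 8.70%, 18.9% and 13.6%. For the blood factor motifs, the RUNX letters TGTGGT were in 23.6%, 21.1% and 16.7%, the GATA letters AGATAA in 22.8%, 16.2% and 11.2%, and the E-box CAGCTG in 20.3%, 17.4% and 16.4%. The median GC content was 52.7% inside members and 46.3% in no region, so the GC box share moved with base composition, whose part in the result was not tested. Both strands were searched, and a match is a description of letters, not a bound site.

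Over all 8563 members, the median fold enrichment was 9.04 and 7.88 with the WT label against 10.3 and 9.61 with the Hira KO label. The 34757 narrow shared regions in or within 10 kb of a coding gene had medians of 11.7, 9.85, 11.9 and 11.7. That difference lay with the 28561 regions inside gene bodies, whose medians were 12.5, 10.5, 12.6 and 12.4. The 6196 regions outside genes but within 10 kb had medians of 9.62, 7.88, 10.3 and 9.61, equal to those of the members in 3 of the 4 lists. Of the members, 2673 (31.2%) stayed below 10-fold in every library. Their summits were placed almost as tightly: the highest summits of the 4 libraries lay within a median of 51 bp of each other, against 48 bp for narrow regions near genes. Fold enrichments in a list were whole multiples of 1 step (0.192, 0.328, 0.233 and 0.343), which held for 100% of values within 0.02 of a step. If a step is 1 overlapping fragment, which the files do not state, the median member rested on 47, 24, 44 and 28 fragments. Counting error alone would then be 14.6%, 20.4%, 15.1% and 18.9% of such a value, so modest differences at single weak regions are not resolved.

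**Figure D1:**
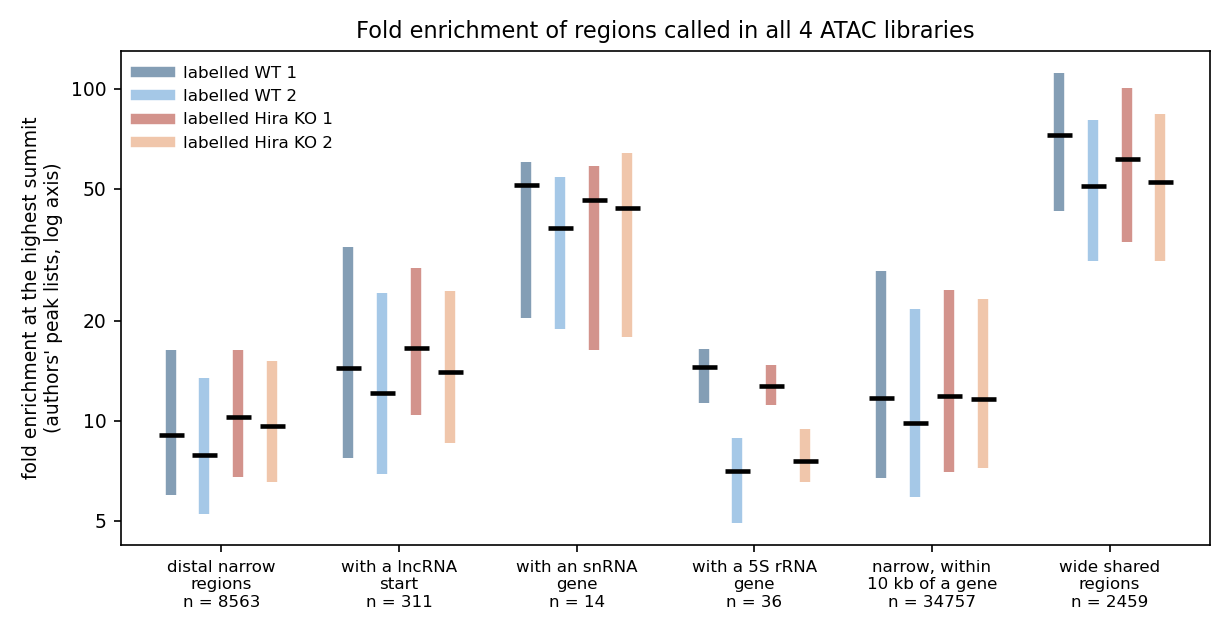
Fold enrichment at the highest summit (y axis, log scale) for 6 classes of regions called in all 4 ATAC libraries; bars run from the lower to the upper quartile and black marks are medians. Distal narrow regions with a 5S rRNA gene had higher medians in both replicate 1 libraries than in both replicate 2 libraries, while those with an snRNA gene stood near 38 to 51-fold in every library.

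A few members were extreme. The region chr12:97061268-97061953, 1140334 bp from Galc, reached 8192, 6439, 8132 and 6827-fold. On chromosome 2, between Lrrc4c and Iftap, chr2:98666081-98667488 reached 3831, 5847, 4538 and 5400-fold and chr2:98662072-98663135 reached 1052, 1545, 1276 and 1518-fold. The next were chr10:96077363-96078043 near Eea1 (2470, 1873, 2252 and 1798-fold), chr6:9889785-9890319 near Nxph1 (2186, 1482, 2050 and 1573-fold) and chr5:60042558-60043227 (1595, 1438, 1602 and 1466-fold). The remaining 2 of the 8 highest were chr2:69355378-69355829 near Abcb11, from 1158 to 1318-fold, and chr9:35305073-35305749 near Rpusd4, from 824 to 1302-fold. In all 8 the groups overlapped, so the height of these regions did not separate the labels. Replicate number did: 5 of the 8 had both replicate 1 values above both replicate 2 values, and the 2 regions between Lrrc4c and Iftap and the one near Rpusd4 had the reverse. In total 7 members exceeded 1000-fold in every library, all of them outside every annotated gene, and 30 exceeded 100-fold. The mitochondrial interval, left out of the set, stood at 21522, 17352, 20725 and 16912-fold, with replicate 1 higher in both groups, and its part in these values was not tested.

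At the edges of the rule, the widest member, chr3:125270162-125272158 near Ndst4, spanned 1997 bp (222, 98.1, 111 and 66.6-fold). The region just over the limit, chr3:19627512-19629512 near Trim55, spanned 2001 bp (82.0, 50.2, 77.2 and 61.8-fold). The member nearest to a gene, chr17:83695795-83696162 by Mta3, lay 10001 bp away (4.81, 6.24, 9.79 and 9.61-fold), and the closest region left out, chr11:79002912-79003444 by Ksr1, lay 9996 bp away (6.73, 6.89, 3.73 and 10.6-fold).

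The strongest distal regions, not the weak ones, more often ranked lower among all shared regions in the libraries labelled Hira KO. A rank is relative to the other shared regions, so it does not measure an absolute fall. Each region was ranked within its library among the 45779 shared regions, and its groups were called apart when both labelled Hira KO ranks lay on one side of both labelled WT ranks. Over all members, 2083 were apart with labelled Hira KO higher (24.3%, against 23.8% of all shared regions) and 2130 with labelled Hira KO lower (24.9%, against 23.1%), so as a whole they differed little from that background. All shared regions were split into 4 equal classes of mean rank over the libraries, a split chosen after seeing the data. The 918 members in class 4, the strongest, had 371 lower (40.4%) and 129 higher (14.1%). All 11445 shared regions of that class went the other way, with 19.6% lower and 24.9% higher. Median fold enrichment of these 918 members was 47.3 and 36.4 with the WT label against 34.4 and 33.6 with the Hira KO label. By number, 66.4% of the 918 ranked lower in labelled Hira KO replicate 1 than in labelled WT replicate 1, and 64.8% for replicate 2. Without X and Y the shares were 40.8% lower and 14.1% higher of 884. Outside every annotated gene they were 39.97% and 12.01% of 583. The pairs and subsets reuse the ranks behind the 40.4%, so they are no separate check. These ranks come from 4 lists with no read counts and 2 libraries a group, and no test was made.

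Distance moved with this. Members 10 to 20 kb from a gene had 21.8% lower and 23.7% higher, those at 100 to 500 kb 31.1% lower and 23.8% higher, and those over 500 kb 30.4% lower and 23.2% higher. Of the 180 members that were both over 100 kb from a gene and in class 4, 101 were lower (56.1%) and 6.67% higher. In class 1, the weakest, over 100 kb the shares were 21.9% lower and 25.1% higher. Replicate number also separated ranks: among the 918 strongest, 21.6% had both replicate 2 ranks above both replicate 1 ranks and 11.5% the reverse. The part of replicate number in the shares lower and higher was not tested.

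**Figure D2:**
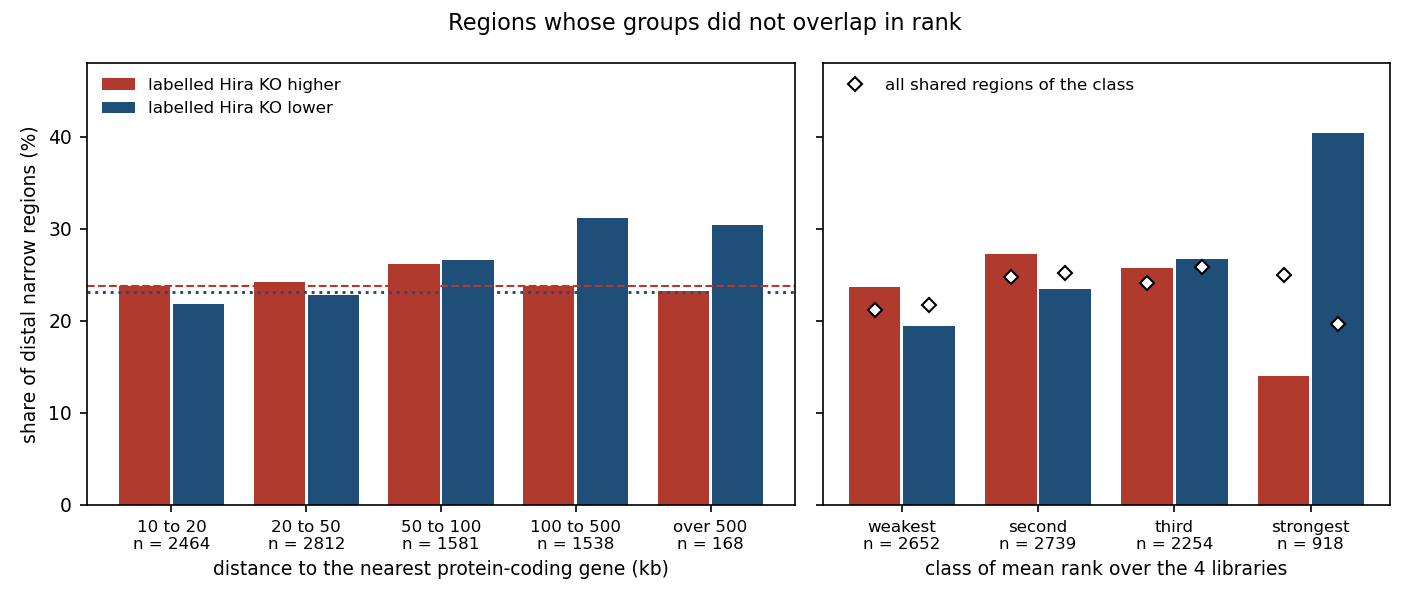
Share of distal narrow regions (y axis, %) whose 2 labelled Hira KO ranks all lay above (red) or below (blue) both labelled WT ranks, by distance to the nearest coding gene in kb (left; dashed and dotted lines give the 23.8% and 23.1% of all shared regions) and by class of mean rank (right; diamonds give all shared regions of the class). In the strongest class 40.4% were lower and 14.1% higher.

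Members came in groups. Chained at gaps of at most 50 kb, they formed 3845 groups, of which 2068 were single regions, while 66 chains of 10 or more regions held 895 members. The largest, 38 regions at chr8:123546995-123624052 between Gas8 and Rhou, covered the array of 5S ribosomal RNA genes. The second, 31 regions at chr17:83861373-84162218, ran from Haao to Zfp36l2, whose product binds and destabilises mRNA. The third, 25 regions at chr13:111867651-112116445, lay beyond Map3k1, a kinase of the JNK pathway, and had 11 lower and 5 higher in labelled Hira KO. Its strongest region, chr13:111940343-111941653, stood at 82.2, 37.4, 48.7 and 46.0-fold, with overlapping groups. The fifth, 24 regions at chr8:126626207-126909154 between Irf2bp2 and Tomm20, leaned the other way, with 12 higher and 2 lower. Its median fold enrichment was 5.77 and 5.74 by the WT label against 10.5 and 9.78. Medians over all members were also higher by the Hira KO label (9.04 and 7.88 against 10.3 and 9.61), and the lists share no common scale. The shares over all shared regions, to set beside these counts, were 23.8% higher and 23.1% lower.

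The fourth chain, 24 regions at chr15:62029995-62223891, followed Myc, the growth factor-responsive transcription factor, and 23 members lay in the neighbouring lncRNA gene Pvt1. Beyond it the desert of 1786 kb up to Gsdmc held 13 more members at its far side, 1626 to 1750 kb from Myc, where an enhancer cluster active in blood cells is known. These 13 were singled out after their values were seen. The strongest near region, chr15:62220615-62222061, 230 kb from Myc, stood at 77.0, 51.5, 40.8 and 46.3-fold. The strongest far region, chr15:63709106-63709990, 1719 kb from Myc, stood at 48.7, 31.2, 21.9 and 25.7-fold. At both, the 2 labelled WT libraries lay above the 2 labelled Hira KO libraries. Another strong near region, 168 kb from Myc, had overlapping groups (64.3, 35.4, 27.7 and 39.8-fold). Over the desert 14 of 38 members were lower in rank and 4 higher. Of the 13 far members, 7 were lower and 2 higher. The shares over all shared regions were 23.1% lower and 23.8% higher. Myc RNA, at 447, 367, 305 and 287 CPM, had a log2 difference of -0.46 ± 0.16 (SE) that did not pass the test (edgeR adjusted p = 0.145).

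**Figure D3:**
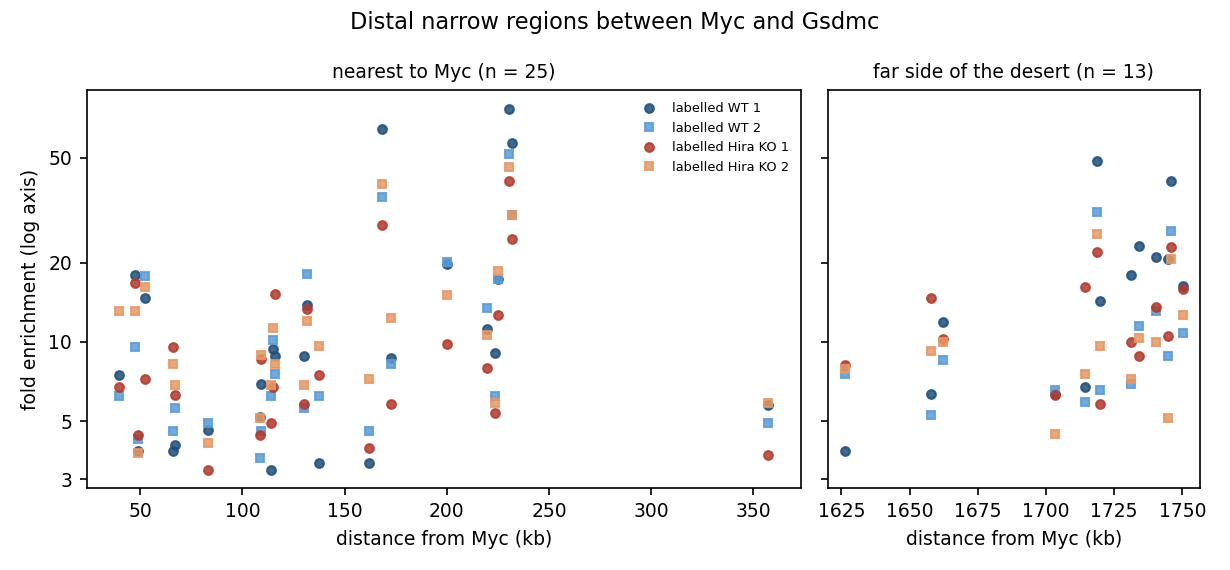
Fold enrichment per library (y axis, log scale) of the 38 distal narrow regions between Myc and Gsdmc against their distance from Myc in kb; circles are replicate 1 and squares replicate 2, blue labelled WT and red to orange labelled Hira KO. The strongest near region, 230 kb from Myc, and the strongest far region, 1719 kb away, were highest in labelled WT replicate 1.

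Genes of blood regulation had members more often than the average gene. A member was assigned to its nearest coding gene, and 3662 of 21887 coding genes (16.7%) had at least 1. Among 30 stem cell transcription factors 11 had one (36.7%), among 30 cytokine and niche receptors 14 (46.7%), among 30 lineage transcription factors 16 (53.3%), and among 30 signal feedback and cell cycle genes 24 (80.0%). Of 20 neuronal genes 3 had one (15%), and of 20 liver and gut genes 6 (30%). These lists were chosen with earlier results known, and genes in wide deserts collect more members, so the shares are descriptions. For single genes below, members called higher or lower in rank stand beside 23.8% higher and 23.1% lower over all shared regions. Far members were lower more often: at 100 to 500 kb from a gene 31.1% were lower and 23.8% higher. All members of Meis1 and most of Runx1 lay at such distances. Of the strongest members (class 4) over 100 kb away, 56.1% were lower and 6.67% higher.

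Among stem cell factors, Meis1, a homeobox gene that maintains stem cells, had 10 members, none higher and 8 lower in labelled Hira KO. Its strongest, chr11:18753634-18754541, lay 125887 bp away in the lncRNA gene Gm31674 and stood at 56.8 and 35.1 against 21.9 and 17.2-fold. Next to it, chr11:18752399-18752892 stood at 18.1 and 10.8 against 4.66 and 4.12-fold. Meis1 RNA went the opposite way, at 70.0 and 78.8 against 205 and 240 CPM (log2 difference 1.58 ± 0.16 SE, adjusted p = 0.0167 by edgeR). Runx1, a master regulator of blood formation, also had 10 members, with 7 lower and 1 higher. Its strongest, chr16:93147432-93148529, lay 321358 bp away and stood at 67.7, 42.3, 37.1 and 31.6-fold. Runx1 RNA stood at 206, 177, 279 and 246 CPM (edgeR adjusted p = 0.139). Lmo2, an adaptor of the GATA and TAL1 complex, had 8 members, 4 lower and 2 higher. The strongest, chr2:103893221-103894648, stood at 110, 84.7, 70.2 and 77.9-fold, and Lmo2 RNA at 72.6, 78.5, 122 and 132 CPM just missed the threshold (edgeR adjusted p = 0.0518). Of the 29 tested genes in the stem cell list, 4 were called higher in labelled Hira KO and 0 lower, against 1.32% and 0.48% of all tested genes. The median log2 difference was 0.29, against 0.01 over all tested genes.

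Among receptors, Cxcr4, the chemokine receptor that holds stem cells in marrow, had 18 members, 8 higher and 6 lower, and the directions were split along the locus. The strong region chr1:128560090-128561800 stood at 85.1 and 65.0 against 36.1 and 39.1-fold, while chr1:128704952-128705623 stood at 8.08 and 7.22 against 24.2 and 20.9-fold. Cxcr4 RNA was 59.5, 57.9, 42.0 and 47.8 CPM (edgeR adjusted p = 0.204). Kit, the receptor for stem cell factor, had 7 members. Its strongest, chr5:75459988-75461064, 113923 bp away, stood at 65.8 and 59.7 against 32.9 and 43.2-fold, and Kit RNA at 274, 351, 330 and 327 CPM did not separate the groups. Cd34, a surface sialomucin of progenitors, had 6 members, the strongest at chr1:194879269-194880249 with 100, 60.1, 73.7 and 55.6-fold. Itga4, an integrin subunit for niche adhesion, had 9, the strongest at chr2:79131182-79132790 with 27.3, 17.7, 21.7 and 19.9-fold. In RNA, 5 of the 30 receptors were called higher and 1 lower, beside the same 1.32% and 0.48% (median log2 difference 0.24).

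Among lineage factors, Zeb2, a repressor needed for blood differentiation, had 17 members, 4 higher and 5 lower. Cebpb, which drives myeloid responses, had 10, with 5 higher and none lower, and its strongest, chr2:167759951-167760436, stood at 16.5 and 17.4 against 25.2 and 30.9-fold. Cebpb RNA was near the floor at 0.16, 0.55, 1.14 and 2.34 CPM (edgeR adjusted p = 0.175). Id2, an inhibitor of helix-loop-helix factors, had 8 members, 4 higher and 0 lower. Foxo1, a factor inhibited by AKT signalling, had 7, with 2 higher and 0 lower. In RNA, 1 of 29 tested lineage factors was called higher and 0 lower (median log2 difference 0.11), which is near the 1.32% and 0.48% of all tested genes.

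Among signal and cell cycle genes, Pik3r1, the regulatory subunit of PI3 kinase, had 21 members, 9 lower and 5 higher. Its strongest by lowest rank, chr13:101545590-101546760, stood at 103 and 100 against 56.6 and 60.1-fold, and chr13:101611559-101612793 at 111 and 84.7 against 53.8 and 58.7-fold. Some weaker regions nearer to Pik3r1 were higher in labelled Hira KO, such as chr13:101658753-101659526 at 12.7 and 8.53 against 29.4 and 23.7-fold. Pik3r1 RNA did not separate the groups (edgeR adjusted p = 0.625). Ccnd1, the cyclin of G1 entry, had 4 members, all higher in labelled Hira KO, such as chr7:144970981-144971595 at 7.12 and 8.86 against 11.9 and 14.1-fold. Its RNA fell from 34.4 and 30.1 CPM to 15.6 and 11.2 CPM (log2 difference -1.26 ± 0.23 SE, adjusted p = 0.0483 by edgeR). Ccnd2, another D-type cyclin, had 7 members, with 5 higher and 1 lower. In RNA, 2 of the 30 genes of this list were called higher and 1 lower, against 1.32% and 0.48% of all tested genes. The median log2 difference was 1.03, against 0.01 over all tested genes. Some uncalled genes with large increases differed widely between labelled Hira KO replicates 1 and 2, such as Fos (218 and 1109 CPM) and Dusp1 (336 and 1246 CPM). Spry2 did not (8.70 and 7.03 CPM).

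**Figure D4:**
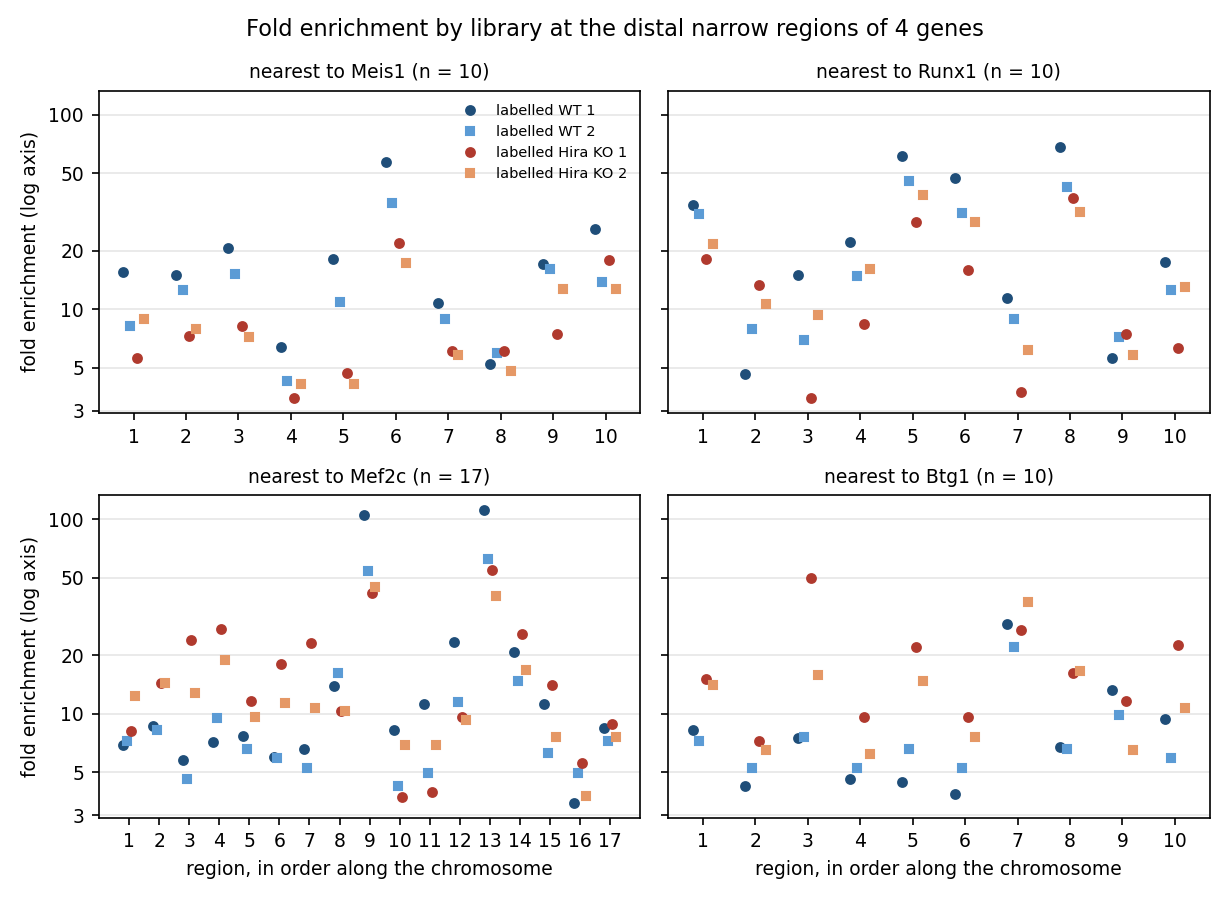
Fold enrichment per library (y axis, log scale) of the distal narrow regions nearest to Meis1, Runx1, Mef2c and Btg1, in order along the chromosome (x axis); circles are replicate 1, squares replicate 2, blue labelled WT and red to orange labelled Hira KO. Labelled WT lay higher at most Meis1 and Runx1 regions and labelled Hira KO at 8 of 10 Btg1 regions, while the 17 Mef2c regions split along the locus.

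RNA level was higher in genes with more members. Coding genes with none had a median of 1.08 TPM (mean of 4 libraries, 17115 genes), those with 1 member 3.46, with 2 to 4 members 4.77, with 5 to 9 members 7.71 and with 10 or more 12.2 TPM (79 genes). The order was the same in each of the 4 libraries. Of the 3662 genes nearest to a member, 2603 passed the filter on low counts. Among them 53 were called higher in labelled Hira KO (2.04%, against 1.32% of all 16258 tested genes) and 14 lower (0.538%, against 0.48%). Among the 68 tested genes with 10 or more members, 7 were higher (10.3%) and 0 lower. At an unadjusted p under 0.05, edgeR had 16 higher and 10 lower, beside 3703 of all 16258 tested genes in either direction. DESeq2 called 10 higher and 3 lower of 69 by adjusted p, against 777 higher (4.77%) and 508 lower of all 16276. The balance moved with the setting: edgeR called 10 higher and 8 lower of 77 such genes without a filter. In that fit 1206 of all 29706 genes were higher (4.06%) and 1017 lower. Lower calls also appeared among such genes without labelled Hira KO replicate 1. Level moved with the number of members, so genes were also counted by level: of 5120 coding genes above 10 TPM 1.64% were called higher, and of the 43 with 10 or more members 6 were. These calls rested on both labelled WT libraries. Without replicate 1 or without replicate 2 of that group, edgeR called none of these genes, and hardly any of all tested genes. Of all genes nearest to a member, 1 and 0 were then called higher and 0 lower, so the calls on single genes given here needed both labelled WT libraries as well. Without replicate 1 or replicate 2 of the labelled Hira KO group, more genes nearest to a member were called in both directions, as were more of all tested genes.

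**Figure D5:**
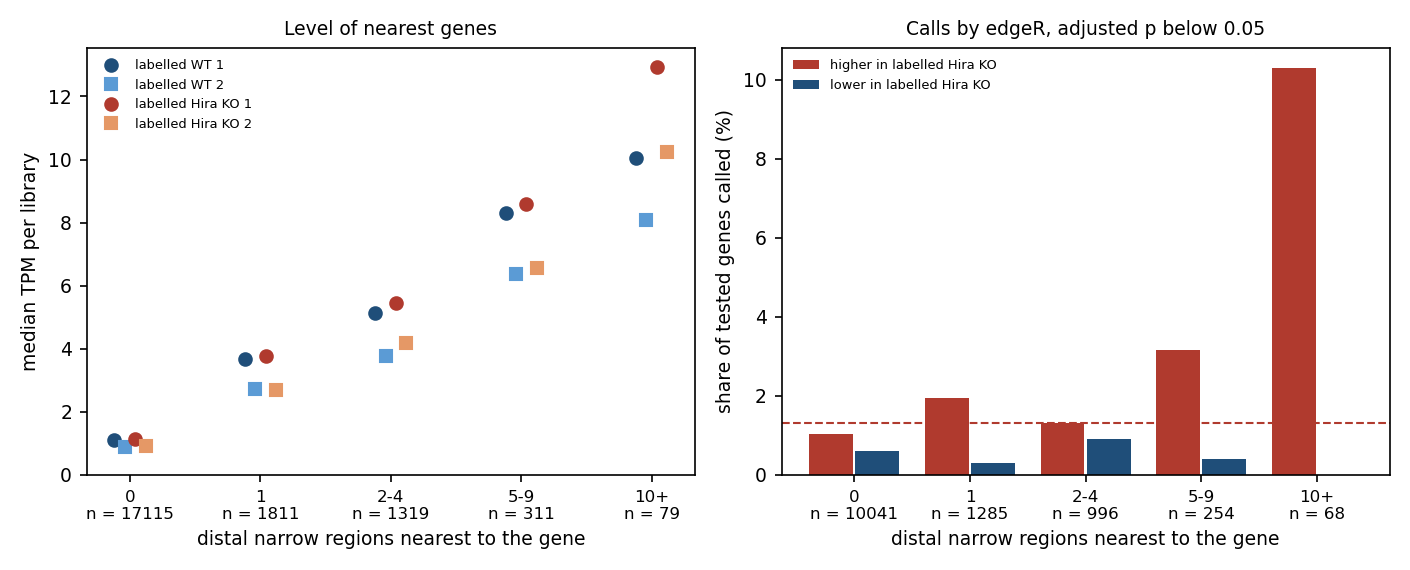
Left, median TPM per RNA library (y axis) of coding genes by the number of distal narrow regions nearest to them (x axis). Right, share of tested genes (y axis, %) called by edgeR as higher (red) or lower (blue) in labelled Hira KO; the dashed line is the 1.32% of all tested genes, and 10.3% of the 68 genes with 10 or more regions were higher.

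The 7 genes were Meis1, Mef2c, Zfp36l2, Zfp608, Arrdc3, Btg1 and Ier5. Btg1, which restrains cell division, stood at 28.2 and 20.6 against 63.6 and 111 CPM (log2 difference 1.84 ± 0.30 SE, adjusted p = 0.0474 by edgeR). Of its 10 members 8 were higher and 1 lower. The largest difference was at chr10:96370689-96371496, 245505 bp away, with 7.50 and 7.55 against 49.9 and 15.8-fold. The spread between the 2 labelled Hira KO libraries was itself wide there. Mef2c, a transcription factor of lymphoid and myeloid progenitors, stood at 240, 202, 445 and 540 CPM (log2 difference 1.16 ± 0.17 SE, adjusted p = 0.0337 by edgeR). Its 17 members split, with 6 higher and 5 lower. At chr13:83074193-83075014, 429003 bp away, the values were 7.12 and 9.52 against 27.3 and 18.9-fold. At chr13:83382353-83383232, 120785 bp away, they were 112 and 62.4 against 54.8 and 40.2-fold. Ier5, an immediate early gene, stood at 6.30, 3.67, 18.3 and 26.1 CPM (log2 difference 2.16 ± 0.34 SE, adjusted p = 0.0370 by edgeR). Its 15 members had 4 higher and 5 lower, and the strongest, chr1:155038866-155039955, stood at 68.1, 71.6, 46.2 and 69.3-fold. Zfp36l2 had 7 of 16 members higher and 3 lower.

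Among the other called genes, the named increases with few members were Angpt1, Vldlr, Gcnt2, Hlf, Tnip3 and Trpc6. Hlf, a stem cell transcription factor, stood at 65.8, 85.7, 257 and 354 CPM (log2 difference 2.01 ± 0.21 SE, adjusted p = 0.0180 by edgeR). Its only member, chr11:90417752-90418334, stood at 20.6, 15.1, 27.0 and 17.8-fold, with overlapping groups. Angpt1, the ligand of the TIE2 receptor, stood at 80.6, 85.02, 247 and 290 CPM (log2 difference 1.70 ± 0.15 SE, adjusted p = 0.0108 by edgeR). Its member, chr15:42322865-42323448, stood at 16.9, 12.1, 9.79 and 16.1-fold. Vldlr, a lipoprotein receptor, rose by 1.78 on the log2 scale, and its member was lower in labelled Hira KO (10.01 and 5.91 against 3.26 and 4.80-fold). Gcnt2 (1.93), Tnip3 (2.78) and Trpc6 (3.08) rose too on that scale. None of the members of these 6 genes had both labelled Hira KO ranks above both labelled WT ranks.

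The named decreases were Stab2, Gpc1, Ly6c2, Parm1, Fcgr2b, Gda, Cecr2 and Xylt1. Fcgr2b, the inhibitory IgG receptor, fell from 37.5 and 33.0 CPM to at most 10.6 CPM (log2 difference -1.78 ± 0.20 SE, adjusted p = 0.0190 by edgeR). Of its 2 members, chr1:170992595-170992952 was higher in labelled Hira KO, at 3.46 and 4.27 against 9.09 and 6.18-fold. Cecr2, a bromodomain protein of chromatin remodelling, stood at 88.8, 78.6, 31.4 and 33.5 CPM (log2 difference -1.37 ± 0.16 SE, adjusted p = 0.0192 by edgeR). Of its 3 members, chr6:120600349-120600805 was lower in rank, at 25.6 and 14.4 against 12.4 and 12.4-fold. The others had overlapping groups, at 7.50, 3.28, 5.13 and 7.21-fold and at 17.1, 9.19, 12.1 and 8.24-fold. Stab2, a scavenger receptor for hyaluronan, fell by 2.42 on the log2 scale while its 1 member, chr10:87024872-87025285, stood at 21.0 and 15.8 against 29.6 and 24.0-fold. Parm1 fell by 1.78 and its member was lower in rank, at 20.8 and 14.8 against 6.29 and 6.52-fold. Ly6c2, a surface marker of myeloid cells, stood at 90.4, 48.9, 21.6 and 17.5 CPM. Reads of Ly6c2 can be shared with close copies of the Ly6 family. Gpc1 (-2.08), Gda (-1.47) and Xylt1 (-1.29) completed the set on that scale. Near the 53 genes that rose lay 205 members, 72 higher (35.1%) and 53 lower (25.9%). Near the 14 that fell lay 37 members, 13 higher (35.1%) and 3 lower (8.11%). Of all shared regions 23.8% were higher and 23.1% lower.

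Members near microRNAs, short RNAs that pair with mRNAs through their seed, included those of the let-7 and miR-125 families that act in blood stem cells. Of 287 microRNA genes over 10 kb from coding genes, 60 (20.9%) had a member within 10 kb. RefSeq gave mature sequences for 54 of the 60, with 69 different seeds. As examples, chosen after the values were seen, the 5p or only listed RNAs of 3 families with a seed shared between loci are shown with the seed (bases 2 to 8) in capitals.
mmu-let-7a-5p: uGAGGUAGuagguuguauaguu
mmu-let-7d-5p: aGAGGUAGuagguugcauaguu
mmu-let-7f-5p: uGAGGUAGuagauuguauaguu
mmu-let-7b-5p: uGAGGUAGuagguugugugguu
mmu-let-7c-5p: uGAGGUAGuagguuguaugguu
mmu-miR-30a-5p: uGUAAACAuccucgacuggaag
mmu-miR-30c-5p: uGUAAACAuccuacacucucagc
mmu-miR-125b-5p: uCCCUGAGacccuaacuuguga
mmu-miR-351-5p: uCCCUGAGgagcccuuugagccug
mmu-miR-6367: uCCCUGAGacccugguucagga
The 5 let-7 RNAs share GAGGUAG, the miR-30 pair GUAAACA, and miR-125b-5p, miR-351-5p and miR-6367 CCCUGAG. The strongest of these members, chr13:48545323-48547087, lay 7051 bp from Mirlet7a-1 and stood at 143, 110, 148 and 140-fold. Its ranks were higher in labelled Hira KO, although the fold enrichments overlap when the labelled WT replicate 1 value is set against labelled Hira KO replicate 2. The member beside Mir30a and Mir30c-2, chr1:23282202-23284198, went the other way, at 93.7 and 53.5 against 44.5 and 33.3-fold. The X-linked cluster of Mir351 and Mir503 had a member at chrX:53056676-53057709 with 23.1, 8.86, 20.7 and 10.3-fold, where both replicate 1 libraries were higher. A member overlapped the microRNA gene itself in 5 cases. Mir713 (72.5, 54.5, 73.4 and 49.4-fold) and Mir6236 (73.1, 41.7, 44.8 and 20.2-fold) were the strongest, followed by Mir8096, Mir7688 and Mir6367. Mature microRNAs were not analysed here.

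The antigen receptor loci, whose gene segments are not listed as coding, held 125 members, and their loci differed in direction. The shares to read them against are the 23.8% higher and 23.1% lower of all shared regions. Igh, the immunoglobulin heavy chain locus at chr12:113258768-116009954, held 46, of which 23 were higher in labelled Hira KO and 1 lower, with medians of 6.25, 6.24, 10.5 and 7.72-fold. Tcra, the T cell receptor alpha locus at chr14:52427967-54224198, held 50, of which 3 were higher and 22 lower, with medians of 10.7, 7.22, 7.46 and 8.41-fold. Tcrb held 16, with 3 higher and 7 lower. The strongest Tcra region, chr14:53336726-53337929, stood at 53.3 and 37.4 against 26.1 and 22.3-fold. Lineage RNA beside them was 37.9, 23.2, 19.4 and 8.74 TPM for the B cell gene Cd79a. Ms4a1, another B cell gene, went the other way, at 0.89, 0.72, 1.08 and 1.56 TPM. Of the T cell genes, Cd3e stood at 1.88, 1.04, 0.48 and 1.25 TPM, Cd4 at 1.39, 1.08, 4.74 and 3.77 TPM and Cd8a at 0.34, 0.32, 0.47 and 0.51 TPM. The part of such cells in these regions was not tested.

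Other non-coding genes marked small groups of members. Members outside every annotated gene numbered 6028 (70.4%), and 2137 lay in lncRNA genes. The 14 members with a gene annotated as snRNA had the highest median of the small RNA classes, at 51.3, 38.1, 46.2 and 43.8-fold, and the strongest, at Gm22634, chr12:54709630-54711503, stood at 97.8, 81.7, 78.8 and 83.4-fold. The 41 with a tRNA gene had medians of 18.9, 12.1, 13.1 and 13.04-fold. The 36 with a 5S rRNA gene had medians of 14.5, 7.06, 12.7 and 7.55-fold. In 88.9% of these both replicate 1 ranks exceeded both replicate 2 ranks, against 17.9% of all members. The copies in such arrays are nearly identical, so reads cannot be given to single copies with certainty.

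On X, 249 members had 13.7% higher and 30.5% lower in labelled Hira KO, against 24.7% and 24.7% of autosomal members and 23.8% and 23.1% of all shared regions. Their median over that of autosomal members was 1.23, 1.04, 0.955 and 0.893. The start of Jpx, an activator of Xist, stood at 35.2, 9.85, 36.8 and 16.1-fold, higher in both replicate 1 libraries, as was the Xist peak (30.2, 8.21, 21.7 and 11.3-fold). The start of Firre, an X-linked lncRNA that binds chromatin, stood at 11.5, 8.53, 20.05 and 11.0-fold. In ATAC the sex chromosomes differed with replicate number in both groups, and their part in the X members was not tested. The 20 members on Y were called in all 4 libraries, also in the 2 without peaks at Y genes. Of these 9 lay at chrY:90776159-90829365, beyond Gm52481, and the strongest of them, chrY:90783323-90785275, stood at 279, 242, 66.2 and 353-fold.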

How the data were processed

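RNA-seq and ATAC-seq libraries of mouse LSK cells, 2 per genotype and assay, were grouped by their titles. The submitters' processing notes list bedtools, Bowtie2 2.2.9, DESeq2, HTSeq, MACS2 2.1.1, RSEM 1.3.0, STAR 2.5.3a, Trim Galore 0.4.5 and the build GRCm38, without the step each served. Per the file headers, the authors deposited expected counts (estimates without normalization) and TPM per gene. The authors' peak lists, 1 per library, give each peak's ratio to background (fold enrichment), a −log10 p-value and a −log10 q-value. No source used here says how the offset of the transposase was handled. The lists held 79565, 63422, 92839 and 73715 intervals. Regions were ranked within each list; fold enrichments of different lists, which share no common scale, are set side by side without a test.

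Intervals were merged at 1 bp of overlap. Genes came from RefSeq GRCm38.p6 (21887 protein-coding), and 45143 of 45706 RNA gene IDs had a symbol. No genome was used, so sequence was read only from RefSeq start windows and microRNAs, and motifs in the other members were not analysed here. Expected counts (16.6 to 19.9 M per library) were rounded and fitted with edgeR 4.0.16 (TMM, filterByExpr, robust quasi-likelihood F test, genotype only, 16258 genes), adjusted by Benjamini-Hochberg and called below 0.05. The biological coefficient of variation was 27.8%, which limits calls of small changes. The edgeR and merging steps were tested on simulated data. Alternatives were other filters and normalizations, DESeq2 1.42.0, limma 3.58.1, a replicate block and leaving out each library.

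Members and gene lists were chosen with earlier results of these data known. Named were the 8 members with the highest lowest rank, up to 4 genes per list with most members (some are not reported here), the 8 largest increases and 8 largest decreases among called nearest genes whose average log2 CPM reached 3 (no gene models, pseudogenes or immunoglobulin genes), the 5 largest chains, members overlapping microRNAs and those next to the limits. Other regions were chosen after their values were seen.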

Additional observations from a re-analysis of the deposited data

How the results depend on the processing

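The set held 3287 members at 50 kb in place of 10 kb from genes and 4045 when all annotated genes, non-coding included, were kept away from. It stayed within 1.5 times the 8563 under the other limits on span, overlap, distance and peak threshold, and ranged from 9009 to 10275 when 1 library was left out of the requirement. Ranking by −log10 q gave the same 2083 and 2130 members apart, which is no separate check, since both values order a list alike, and the mean over summits gave 2066 and 2025.

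RNA calls depended on the settings. Higher and lower calls over all genes, 214 and 78 in the edgeR fit reported, were 1206 and 1017 without a filter, 374 and 152 with at least 1 CPM in every library, 777 and 508 by DESeq2, 392 and 262 by limma on log2(TPM + 1), and 376 and 246 on log2(TPM + 0.1). The replicate block gave 368 and 169 calls, and left Btg1 and Trpc6 just short of a call (edgeR adjusted p = 0.0534 and 0.0546). The numbers do not pair the samples (deviations correlated at 0.022), and the cause was not tested. Leaving out 1 library gave 1 to 1657 higher and 1 to 1888 lower, where the lone library of a group is assumed to vary like the other group. Among genes nearest to members, higher calls were 257 without a filter, 99 at 1 CPM, 178 by DESeq2 and 20 with members at 50 kb, and 0 to 389 with 1 library left out. Lower calls were 192 without a filter, 24 at 1 CPM, 85 by DESeq2, 44 and 38 by limma, 6 with members at 50 kb, and 0 to 333 with 1 library left out. With the replicate block they were 27. Genes with 10 or more members had a larger share of higher calls than all genes in 10 of 12 settings, the exceptions being those without either labelled WT library. The 16 named genes kept their direction in all 175 alternative fits and their call in 132.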
